A study of Coelastrella tenuitheca with 9 samples.

Results

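Described here are the genes for the cytoskeleton and for cytoplasmic motor proteins in Coelastrella tenuitheca S93-3, a green microalga of fresh water: 26 of the 12605 genes in the deposited table. Members were chosen by words in the product name (tubulin, actin, kinesin, dynein, katanin and related terms). Products named as axonemal or flagellar, kinases and chaperones were left out, so that 7 of the 33 matched genes were dropped. The group held 7 tubulin and tubulin-modifying genes, 2 actin genes, 9 kinesins, 6 dynein genes and 2 katanins. No product matched myosin, centrin, profilin, septin or cofilin. Since only 19.5% of genes carry a product name, this says nothing about whether such genes exist in the alga.

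RNA-seq libraries were made from poly(A) RNA of whole cells of the wild-type strain, with a kit that keeps the strand. Cultures were grown for 5 days in modified BG-11 medium with 20 g/L glucose under continuous light at 28 °C. They were then moved to fresh medium with 0, 20 or 50 mg/L CdCl2 for 7 days, and the groups are called Control, Cd20 and Cd50. Each group has 3 libraries, named by group and number (Control 1, Cd20 1, Cd50 1). All come from 1 strain and carry the same batch label. The labels do not say what separates libraries with different numbers, so the p-values below reflect the spread among these libraries, which could be technical.

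Microtubules are hollow polymers of paired alpha- and beta-tubulin, and serve as spindle fibres, as tracks for transport and as the core of flagella. Kinesins and dyneins are motor proteins that walk along them at the cost of ATP, and katanins cut them. Actin forms thinner filaments that turn over with the help of depolymerizing factors. In the green alga Chlamydomonas, tubulin transcripts are known to increase around cell division and after the loss of flagella. The files name products after the best fungal match, and a name therefore states a likeness and not a tested function. No sequences were analysed here.

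Between 10457007 and 15456743 counts were assigned to genes per library. CPM is a count scaled to a common library size, here with TMM factors, which correct for differences in RNA composition. The 16 photosynthesis markers of the labelled cell type (15 chlorophyll a-b binding genes and the Rubisco small chain) had counts in 15 or 16 cases in every library. Their summed level was 2932 to 3156 CPM in Control, 1786 to 1999.8 CPM in Cd20 and 2029 to 2328 CPM in Cd50. The Rubisco gene A03462 made up much of this sum and of its differences, with a mean of 2221 CPM in Control, 1084 CPM in Cd20 and 1283 CPM in Cd50. Of the 14 markers tested, 4 rose and 7 fell at 20 mg/L, and 4 rose and 5 fell at 50 mg/L, each against control by edgeR. Of all tested genes, 23.8% rose and 27.2% fell at 20 mg/L, and 17.8% rose and 21.8% fell at 50 mg/L. Control 1 and Cd50 1 stood apart from their groups. On the first principal component of all tested genes, which held 60.6% of the variance, Cd20 lay between -58.1 and -45.0. Cd50 1 lay at 17.7, against 51.3 and 52.7 for Cd50 2 and 3, and Control 1 at -12.2, against 29.0 and 13.8 for Control 2 and 3. Both libraries thus lay nearest to Cd20 within their groups, their part in the results was not tested, and counts are given with and without them.

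The 26 genes together took 0.326% ± 0.0063 of assigned counts in Control, 0.381% ± 0.013 in Cd20 and 0.297% ± 0.010 in Cd50 (SD, n = 3 each). Most of this came from alpha- and beta-tubulin, which made up 73.5% ± 1.6 of the members' counts in Control, 78.4% ± 0.71 in Cd20 and 67.6% ± 2.3 in Cd50. Per length, on the FPKM scale averaged over the 9 libraries, alpha-tubulin A02279 stood at 1296.5 and beta-tubulin A07845 at 529. Actin A05757 and kinesin protein 6 A04897 followed at 174 each, and the LC8-type dynein light chain A04672 at 113. At the other end, 5 members averaged below 1 FPKM, the katanin A08756 (0.948), the dynein light chain A07380 (0.809), the kinesins A04701 (0.570) and A05097 (0.102), and the polyglutamylase A02756 (0.337).

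**Figure D1:**
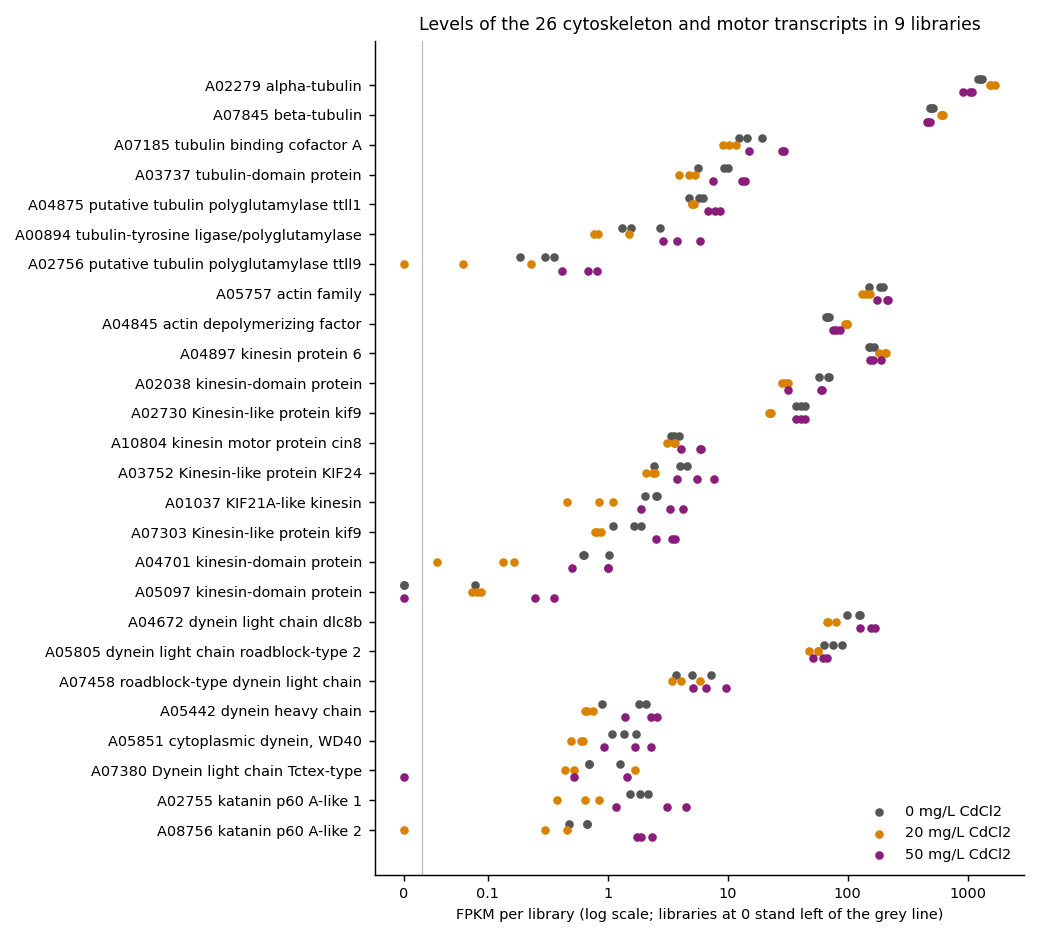
FPKM of each member in every library on a log axis, with rows grouped by kind of protein and ordered by mean level, and with libraries listed at 0 drawn left of the grey line. Alpha-tubulin (922.7 to 1687) and beta-tubulin (460.5 to 629.0) stand above all other members in each library, and in most rows below 100 FPKM the 20 mg/L points lie furthest to the left.

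With 20 mg/L CdCl2, the 2 main tubulins, the actin depolymerizing factor and the most abundant kinesin rose against untreated cultures, while 5 other kinesins, 3 dynein genes, a katanin and a minor tubulin fell. Of the 26 members, 23 had enough counts to be tested and 3 (A02756, A05097 and A07380) did not. Among the 23, 4 rose, or 17.4%, against 23.8% of all 11140 tested genes, and 10 fell, or 43.5%, against 27.2% of all tested genes (edgeR quasi-likelihood test, Benjamini-Hochberg adjusted p under 0.05 over all genes). The share that fell was above that of all genes, and the share that rose was near it. The median log2 fold change was -0.57 in the tested members and -0.03 in all tested genes. Control 1 was the lowest control library for 9 of the 10 genes that fell and the highest for the 4 that rose. Over all 23 tested members it was lowest for 15 and highest for 6, and its place over all tested genes was not counted. Without Control 1 and Cd50 1 together, 4 rose and 13 fell, and the share of all tested genes in that fit was not counted. As these are bulk cultures, a change in the share of cells in a given state and a change in RNA per cell cannot be told apart.

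With 50 mg/L CdCl2 against no cadmium, fewer members differed. The katanin A08756, the KIF9-type kinesin A07303 and the tubulin-tyrosine ligase or polyglutamylase A00894 rose, and alpha- and beta-tubulin, the kinesin-domain gene A02038 and the roadblock light chain A05805 fell. These are 3 rises, or 13.0%, against 17.8% of all tested genes, and 4 falls, or 17.4%, against 21.8% of all tested genes, both near the level of all genes. The median log2 fold change was 0.15 in the tested members and 0.03 in all tested genes. The counts moved with single libraries. There were 2 falls without Control 1, Control 3, Cd50 2 or Cd50 3, 6 rises without Cd50 1, and 1 rise without Control 3 or Cd50 2. They also moved with the scaling: 6 rises and 1 fall with library size alone, and 4 rises and 1 fall with upper quartile factors. The calls over all tested genes moved as well. With TMM 1983 rose and 2431 fell, with library size alone 3851 rose and 1582 fell, and with upper quartile factors 3119 rose and 1839 fell. Without Control 1 and Cd50 1 together there were 6 rises and 5 falls. For the fits with libraries left out, shares of all tested genes were not counted.

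Between the 2 cadmium concentrations the members differed most often, as did all tested genes. At 50 against 20 mg/L, 13 of 23 rose, or 56.5%, against 35.3% of all tested genes, and 4 fell, or 17.4%, against 34.7% of all tested genes. The 4 that fell were alpha- and beta-tubulin, the actin depolymerizing factor and kinesin protein 6. The 13 that rose were 5 kinesins, 3 dynein genes, both katanins and 3 tubulin-related genes other than the main subunits. The median log2 fold change was 0.71 in the tested members and 0.03 in all tested genes. Cd50 1 was the lowest Cd50 library for 11 of the 13 that rose, and the highest for the 4 that fell. Over all 23 tested members it was lowest for 16 and highest for 5, and its place over all tested genes was not counted. Without Control 1 and Cd50 1 together, 17 rose and 4 fell, and the share of all tested genes in that fit was not counted. The 3 comparisons share libraries in pairs, so their results are not independent of one another. In group means, 17 of the 23 tested members had their lowest CPM in Cd20, where 41.4% of all tested genes had theirs.

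**Figure D2:**
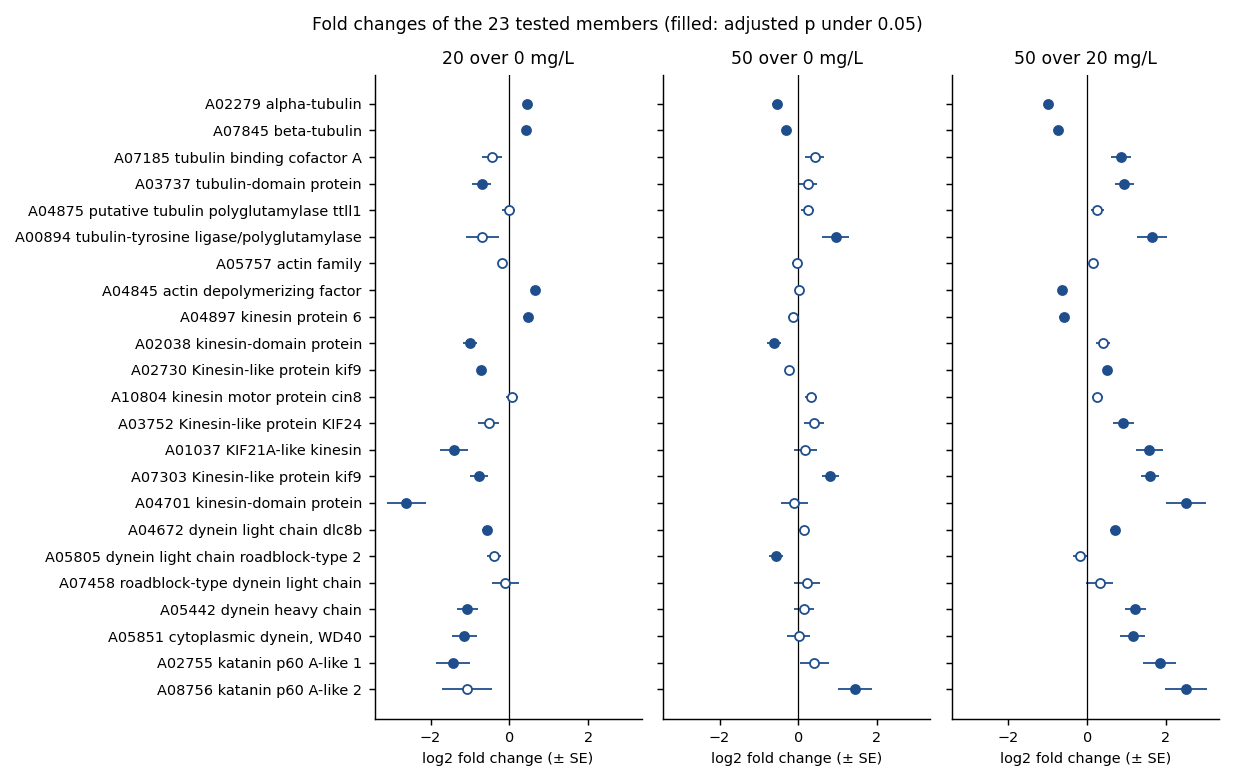
Log2 fold changes of the 23 tested members with their standard errors in the 3 comparisons, with filled points at an adjusted p under 0.05 (edgeR). In the 20 over 0 mg/L panel the 2 main tubulins, A04845 and A04897 lie right of 0 and most motors left of it, and in the 50 over 20 mg/L panel those 4 lie left of 0 and most motors right of it.

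Calls rest on TMM scaling, and the choice matters most where Cd50 is involved. With library size alone, the median log2 fold change of all tested genes moved from -0.03 to -0.16 at 20 mg/L against control, from 0.03 to 0.26 at 50 mg/L against control, and from 0.03 to 0.39 at 50 against 20 mg/L. Rises made up 46.7%, 44.9% and 50.4% of all calls with TMM in these 3 comparisons, and 36.6%, 70.9% and 70.6% with library size alone. FPKM values are scaled by library size alone, so a Cd50 level in FPKM stands higher relative to the other groups than the same level in CPM.

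Alpha-tubulin A02279, a subunit of every microtubule, lies on chromosome 14 from 608153 to 610788 as the files give it. No source used here names the assembly. Alpha-tubulin had 1918, 1657 and 1749 CPM in Control 1 to 3, 2377, 2305 and 2573 CPM in Cd20 1 to 3, and 1390, 1057 and 1190 CPM in Cd50 1 to 3. The 3 groups did not overlap, with Cd20 above and Cd50 below the controls. Its log2 fold change was 0.45 (SE 0.11, edgeR adjusted p = 0.00553) at 20 mg/L against control, -0.55 (SE 0.11, adjusted p = 0.00214) at 50 mg/L against control, and -0.997 (SE 0.11, adjusted p = 4.21e-05) at 50 against 20 mg/L. All 3 calls held in each of 20 alternative settings.

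Beta-tubulin A07845, the partner of alpha-tubulin in each dimer, lies on chromosome 4 from 852211 to 854331. It had 730.3, 655 and 670.0 CPM in Control 1 to 3, 901, 905 and 942 CPM in Cd20 1 to 3, and 588, 518 and 537 CPM in Cd50 1 to 3. The order of the groups was that of alpha-tubulin, again with no overlap. It rose at 20 mg/L (log2 fold change 0.42, SE 0.09, edgeR adjusted p = 0.00220) and was lower at 50 than at 20 mg/L (-0.74, SE 0.09, adjusted p = 5.90e-05). At 50 mg/L against control it fell by 0.32 (SE 0.09, adjusted p = 0.0121). That last call was lost with library size alone (log2 fold change -0.09, edgeR adjusted p = 0.287), with upper quartile factors (-0.16, adjusted p = 0.0798) and in limma on log2(FPKM + 1) (adjusted p = 0.264). It was also lost without Control 1 (edgeR adjusted p = 0.0585), Cd50 2 (adjusted p = 0.0727) or Cd50 3 (adjusted p = 0.0530).

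The ratio of alpha- to beta-tubulin within a library does not depend on the scaling. Taken from FPKM values, Control 1 to 3 had ratios of 2.58, 2.48 and 2.56. The ratios were 2.59, 2.502 and 2.68 for Cd20 1 to 3, and 2.32, 2.004 and 2.18 for Cd50 1 to 3. The Cd50 libraries were thus below all others, while Cd20 and Control overlapped. The mean ratio was 2.17 ± 0.16 in Cd50 and 2.54 ± 0.05 in Control (SD, n = 3 each, exact two-sided permutation p = 0.1, which is the smallest that 3 against 3 can give). Cd20 had 2.59 ± 0.09, with an exact permutation p of 0.4 against Control and 0.1 for Cd50 against Cd20. Alpha-tubulin relative to actin A05757 stood at 7.30 ± 1.32 in Control, 11.2 ± 1.32 in Cd20 and 5.12 ± 1.02 in Cd50 (SD, n = 3 each). Cd20 libraries (10.2 to 12.7) lay above the controls (6.21 to 8.76, exact permutation p = 0.1), and Cd50 libraries (4.24 to 6.24) overlapped the controls by 1 library (exact permutation p = 0.2). Benjamini-Hochberg adjustment over these 6 tests gave 0.15 for the 4 with a raw p of 0.1. It gave 0.24 for that of 0.2 and 0.4 for the last. An exact permutation test of 3 against 3 cannot pass 0.05.

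**Figure D3:**
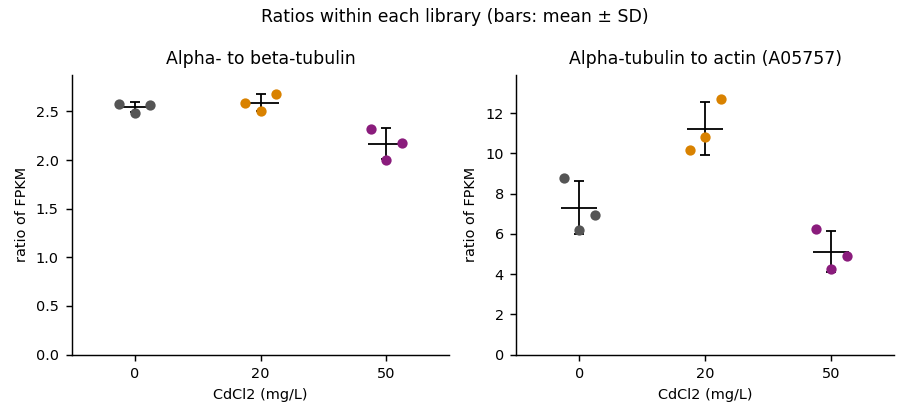
Ratios of FPKM within each library by CdCl2 concentration, alpha- over beta-tubulin on the left and alpha-tubulin over actin A05757 on the right, with points for libraries and bars for the mean ± SD. The alpha to beta ratio is 2.004 to 2.32 in Cd50 and 2.48 to 2.68 in all other libraries, and the ratio to actin is at 10.2 to 12.7 in Cd20.

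The other tubulin-related genes were far less abundant and did not follow the main subunits. The tubulin-domain gene A03737 had 5.49 to 7.60 CPM in Cd20 and 7.64 to 12.8 CPM in Control, and fell (log2 fold change -0.70, SE 0.25, edgeR adjusted p = 0.0321). This call was lost without Control 2 (adjusted p = 0.113), Control 3 (0.101), Cd20 1 (0.0633) or Cd20 2 (0.119). With 8.99 to 14.8 CPM in Cd50, it was higher at 50 than at 20 mg/L (0.94, SE 0.24, edgeR adjusted p = 0.00465). Tubulin binding cofactor A (A07185), which holds beta-tubulin during folding, had 4.47 to 6.55 CPM in Control, 3.44 to 4.36 CPM in Cd20 and 4.76 to 8.42 CPM in Cd50. It was higher at 50 than at 20 mg/L (0.86, SE 0.25, edgeR adjusted p = 0.00857). Against control its log2 fold change was -0.44 at 20 mg/L (edgeR adjusted p = 0.160) and 0.42 at 50 mg/L (0.177). Without Control 1 and Cd50 1, cofactor A passed in both (edgeR adjusted p = 0.0298 at 20 mg/L and 0.0368 at 50 mg/L), and at 50 mg/L also without Cd50 1 alone (0.62, adjusted p = 0.0247).

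Tubulin tails carry chains of glutamate and a terminal tyrosine that enzymes of the tubulin-tyrosine-ligase family add. The ligase or polyglutamylase A00894 had 1.10, 2.15 and 1.25 CPM in Control 1 to 3, 0.675, 1.31 and 0.729 CPM in Cd20 1 to 3, and 2.16, 3.88 and 2.51 CPM in Cd50 1 to 3. Cd50 and Control did not overlap, but the lowest Cd50 library and the highest control library were at almost the same level. It was higher at 50 than at 20 mg/L (log2 fold change 1.64, SE 0.39, edgeR adjusted p = 0.00251). It also rose by 0.94 at 50 mg/L against control (SE 0.35, adjusted p = 0.0455), a call lost in 8 of 20 alternatives. The lost ones include the fits without Control 1 (adjusted p = 0.132), Control 3 (0.135), Cd20 1 (0.0551), Cd20 3 (0.0547), Cd50 2 (0.208) or Cd50 3 (0.0684). The TTLL1-like polyglutamylase A04875 ranged from 6.55 to 8.66 CPM in Control, 7.58 to 8.10 CPM in Cd20 and 8.90 to 9.97 CPM in Cd50, and passed in no comparison. Its log2 fold change at 50 against 20 mg/L was 0.26 (edgeR adjusted p = 0.164), or 0.62 (adjusted p = 0.00717) with library size alone. For 50 mg/L against control it was 0.24 (adjusted p = 0.245), or 0.48 (adjusted p = 0.0358) with library size alone and 0.42 (adjusted p = 0.0340) in limma on log2(FPKM + 1). The TTLL9-like gene A02756, whose relative in Chlamydomonas acts on flagellar tubulin, had too few counts to be tested here. It had 15, 5 and 29 counts summed over the 3 libraries of Control, Cd20 and Cd50. The authors' deposited tables do list A02756 at 50 against 20 mg/L, with a log2 fold change of 2.26.

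Actin A05757, on chromosome 2 from 5041006 to 5043824, builds the actin filaments. It had 199.6, 243 and 230.4 CPM in Control 1 to 3, 213, 194 and 185 CPM in Cd20 1 to 3, and 203 (Cd50 1), 227 and 222 CPM in Cd50. All 3 groups overlapped. Its log2 fold change was -0.19 (SE 0.10, edgeR adjusted p = 0.150) at 20 mg/L and -0.05 (SE 0.10, adjusted p = 0.748) at 50 mg/L, each against control, and 0.14 (SE 0.10, adjusted p = 0.240) at 50 against 20 mg/L. This gene passed at 20 mg/L against control with library size alone (-0.31, adjusted p = 0.0413) and without Control 1 and Cd50 1 (-0.25, adjusted p = 0.00985). It passed at 50 against 20 mg/L with library size alone (0.50, adjusted p = 0.00221) and without those 2 libraries (0.20, adjusted p = 0.0315). Missing the threshold does not show that actin was equal in the groups.

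The actin depolymerizing factor A04845, on chromosome 1 from 5555557 to 5557741, belongs to a family that severs actin filaments and speeds their turnover. It had 54.2, 48.5 and 49.6 CPM in Control 1 to 3, 80.4, 77.5 and 81.9 CPM in Cd20 1 to 3, and 54.5, 53.4 and 46.4 CPM in Cd50 1 to 3. All Cd20 libraries lay above all others, while Cd50 and Control overlapped. The log2 fold change was 0.65 (SE 0.10, edgeR adjusted p = 0.000311) at 20 mg/L against control and -0.64 (SE 0.10, adjusted p = 0.000236) at 50 against 20 mg/L, and both calls held in all 20 alternatives. For 50 mg/L against control the log2 fold change was 0.02 (edgeR adjusted p = 0.903), or 0.25 (adjusted p = 0.0397) with library size alone.

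Kinesin protein 6 (A04897), on chromosome 1 from 5853994 to 5859054, was the most abundant kinesin and reached the level of actin in FPKM. It had 378, 322 and 329 CPM in Control 1 to 3, 435, 485 and 500.5 CPM in Cd20 1 to 3, and 379, 290.2 and 273 CPM in Cd50 1 to 3. Cd20 stood above both other groups without overlap, as with the tubulins. It rose at 20 mg/L (log2 fold change 0.46, SE 0.13, edgeR adjusted p = 0.00996) and was lower at 50 than at 20 mg/L (-0.59, SE 0.13, adjusted p = 0.00147), in all 20 alternatives. Against control it was at -0.13 at 50 mg/L (adjusted p = 0.439), and -0.29 without Cd50 1 (adjusted p = 0.0272).

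**Figure D4:**
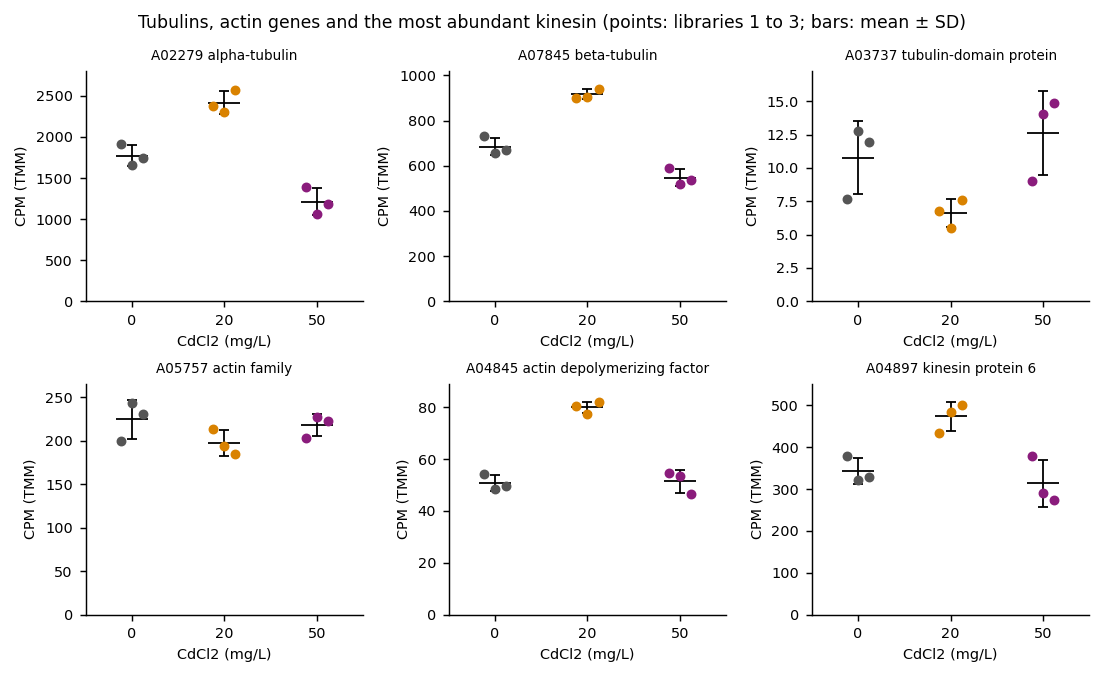
CPM of 6 abundant or filament-forming members by CdCl2 concentration, with points for the 3 libraries and bars for the mean ± SD. Alpha-tubulin (2305 to 2573 CPM), beta-tubulin (901 to 942 CPM), A04845 (77.5 to 81.9 CPM) and A04897 (435 to 500.5 CPM) are highest at 20 mg/L, whereas A03737 (5.49 to 7.60 CPM) is lowest there.

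Of the 8 kinesins tested, 5 fell and 1 rose at 20 mg/L, where 27.2% of all tested genes fell and 23.8% rose. Against control at 50 mg/L 1 fell and 1 rose, near the 21.8% and 17.8% of all tested genes, and at 50 against 20 mg/L 5 rose and 1 fell, beside 35.3% and 34.7% of all tested genes. A02038, a kinesin-domain gene with a coding length of only 519 bases, had 32.0, 36.1 and 36.7 CPM in Control 1 to 3, 18.5, 17.2 and 16.6 CPM in Cd20 1 to 3, and 15.6, 26.9 and 25.99 CPM in Cd50 1 to 3. Both cadmium groups were below the controls, and Cd50 1 lay below the Cd20 libraries while Cd50 2 and 3 lay above them. The fall at 20 mg/L (log2 fold change -1.003, SE 0.18, edgeR adjusted p = 0.000917) held in all 20 alternatives. The fall at 50 mg/L (-0.61, SE 0.18, adjusted p = 0.0173) was lost with library size alone (-0.36, adjusted p = 0.159), with upper quartile factors (0.0856), in limma (0.117) and in edgeR without Control 3 (0.0571). Its log2 fold change at 50 against 20 mg/L was 0.40 (adjusted p = 0.0700), and 0.60 (adjusted p = 0.000824) without Cd50 1.

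KIF9-type kinesins are found in the central apparatus of the flagellum in Chlamydomonas, and 2 members carry this name. A02730 had 88.8 to 99.1 CPM in Control, 54.9 to 57.3 CPM in Cd20 and 77.8 to 82.0 CPM in Cd50, with no overlap between any 2 groups. It fell at 20 mg/L (log2 fold change -0.73, SE 0.09, edgeR adjusted p = 6.73e-05) and was higher at 50 than at 20 mg/L (0.50, SE 0.09, adjusted p = 0.000520). Against control it was at -0.23 at 50 mg/L (adjusted p = 0.0553), and it passed in 4 of 20 alternatives, among them a replicate block within the 6 libraries (-0.22, edgeR adjusted p = 0.0338) but not a block over all 9 (0.0669). With upper quartile factors the difference was -0.07 (adjusted p = 0.564), and with library size alone it was 0.0040 (adjusted p = 0.976), so its direction flips with the scaling. A07303 had 3.30, 4.72 and 5.41 CPM in Control 1 to 3, 2.80, 2.44 and 2.60 CPM in Cd20 1 to 3, and 6.65, 8.64 and 8.16 CPM in Cd50 1 to 3. The groups did not overlap, and Cd50 was highest. It fell at 20 mg/L (-0.77, SE 0.24, adjusted p = 0.0172) and rose at 50 mg/L (0.81, SE 0.21, adjusted p = 0.00897), both against control. The fall was lost without Control 3 (edgeR adjusted p = 0.0788), Cd20 2 (0.0609) or Cd20 3 (0.0517). At 50 against 20 mg/L A07303 was higher by 1.58 on the log2 scale (SE 0.23, adjusted p = 0.000138). Because both genes match the same protein, reads could be split between them where their sequences are alike.

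Among the low-level kinesins, A04701, a kinesin-domain gene on chromosome 1 from 4797562 to 4802451, had the largest fall of the group at 20 mg/L. It had 20, 26 and 16 counts in Control 1 to 3, 4, 1 and 3 counts in Cd20 1 to 3, and 11, 24 and 22 counts in Cd50 1 to 3. Only the Cd20 libraries were low, and the counts there are few. The log2 fold change was -2.61 (SE 0.50, edgeR adjusted p = 0.00121) at 20 mg/L and -0.10 (adjusted p = 0.841) at 50 mg/L, each against control, and 2.51 (SE 0.51, adjusted p = 0.000898) at 50 against 20 mg/L. The KIF21A-like gene A01037, whose human namesake slows microtubule growth, had 2.62, 3.07 and 3.17 CPM in Control 1 to 3, 1.16, 1.48 and 0.625 CPM in Cd20 1 to 3, and 2.16, 4.32 and 3.38 CPM in Cd50 1 to 3. It was lowest in Cd20, and Cd50 overlapped the controls. It fell at 20 mg/L (-1.40, SE 0.35, adjusted p = 0.00573), was higher at 50 than at 20 mg/L (1.58, SE 0.34, adjusted p = 0.00157) and was at 0.17 at 50 mg/L against control (adjusted p = 0.659).

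The KIF24-like kinesin A03752, whose human namesake acts at centrioles, had 4.68 to 8.37 CPM in Control, 4.27 to 4.97 CPM in Cd20 and 6.47 to 11.8 CPM in Cd50. It was higher at 50 than at 20 mg/L (log2 fold change 0.92, SE 0.26, edgeR adjusted p = 0.00814). At 20 mg/L against control it was at -0.52 (adjusted p = 0.121), and at -0.72 without Control 1 (adjusted p = 0.0255). The cin8-like kinesin A10804, named after a spindle motor of budding yeast, had 11.4 to 12.5 CPM in Control, 11.2 to 12.9 CPM in Cd20 and 12.1 to 16.1 CPM in Cd50, and passed in no comparison. Its log2 fold change at 50 mg/L against control was 0.32 (adjusted p = 0.0991), or 0.44 (adjusted p = 0.0221) without Cd50 1 and 0.57 (adjusted p = 0.0182) with library size alone. At 50 against 20 mg/L it was 0.26 (adjusted p = 0.138), or 0.37 (adjusted p = 0.0335) without Cd50 1. The kinesin-domain gene A05097 had 1, 3 and 7 counts in the summed libraries of Control, Cd20 and Cd50 and was not tested.

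Of the 5 dynein genes tested, 3 fell at 20 mg/L against control (27.2% of all tested genes fell), 1 fell at 50 mg/L against control (21.8% of all tested genes fell) and 3 rose at 50 against 20 mg/L (35.3% of all tested genes rose), while the rest did not pass. The count at 50 mg/L against control is near the share of all genes. The dynein heavy chain A05442, on chromosome 2 from 3296009 to 3322062, holds the motor domain that splits ATP. It had 10.9, 23.9 and 21.1 CPM in Control 1 to 3, 8.68, 9.4996 and 8.33 CPM in Cd20 1 to 3, and 15.0, 22.2 and 24.7 CPM in Cd50 1 to 3. Cd20 was below both other groups, though Control 1 came close to it. The log2 fold change was -1.07 (SE 0.27, edgeR adjusted p = 0.00689) at 20 mg/L and 0.15 (adjusted p = 0.652) at 50 mg/L, each against control, and 1.22 (SE 0.27, adjusted p = 0.00182) at 50 against 20 mg/L. The WD40-domain gene of cytoplasmic dynein A05851, a repeat that dynein intermediate chains carry, had 2.62, 3.89 and 3.08 CPM in Control 1 to 3, 1.25, 1.48 and 1.56 CPM in Cd20 1 to 3, and 1.98, 3.22 and 4.32 CPM in Cd50 1 to 3. It too was lowest in Cd20, with log2 fold changes of -1.15 (SE 0.32, adjusted p = 0.0109) at 20 mg/L and 0.01 (adjusted p = 0.990) at 50 mg/L against control, and 1.15 (SE 0.32, adjusted p = 0.00684) at 50 against 20 mg/L.

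The light chains differed among themselves. A04672, of the LC8 type that is shared by dynein and many other complexes, had 29.7, 35.6 and 35.8 CPM in Control 1 to 3, 21.4, 21.2 and 25.3 CPM in Cd20 1 to 3, and 33.3, 37.5 and 39.9 CPM in Cd50 1 to 3. Cd20 did not overlap the other groups, which overlapped each other. It fell at 20 mg/L (log2 fold change -0.57, SE 0.13, edgeR adjusted p = 0.00356) and was higher at 50 than at 20 mg/L (0.71, SE 0.13, adjusted p = 0.000546). Its log2 fold change at 50 mg/L against control was 0.13 (edgeR adjusted p = 0.416), or 0.37 (adjusted p = 0.0386) in limma on log2(FPKM + 1). The roadblock-type light chain A05805 had 29.9, 20.0 and 24.1 CPM in Control 1 to 3, 19.9, 19.8 and 16.8 CPM in Cd20 1 to 3, and 19.9, 16.7 and 13.5 CPM in Cd50 1 to 3. All cadmium libraries lay under the lowest control, the highest of them by little and Cd50 3 furthest below. It fell at 50 mg/L (-0.57, SE 0.18, adjusted p = 0.0246), a call lost in 8 of 20 alternatives. They include the fits without Control 1 (edgeR adjusted p = 0.109), Control 3 (0.0556), Cd50 2 (0.0726) or Cd50 3 (0.118), and library size alone (0.108). At 20 mg/L it was at -0.39 (edgeR adjusted p = 0.0835), and it passed in 6 of 20 alternatives. These include library size alone (-0.51, edgeR adjusted p = 0.0216), upper quartile factors (0.0287), and the fits without Control 2 (0.0362) and without Cd50 1 (0.0494).

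The second roadblock-type gene, A07458, ranged from 1.17 to 2.17 CPM in Control, 1.15 to 1.92 CPM in Cd20 and 1.44 to 2.42 CPM in Cd50, and passed in no comparison (edgeR adjusted p of 0.417 to 0.822). The Tctex-type light chain A07380 had 13, 11 and 8 counts in the summed libraries of Control, Cd20 and Cd50 and was not tested.

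**Figure D5:**
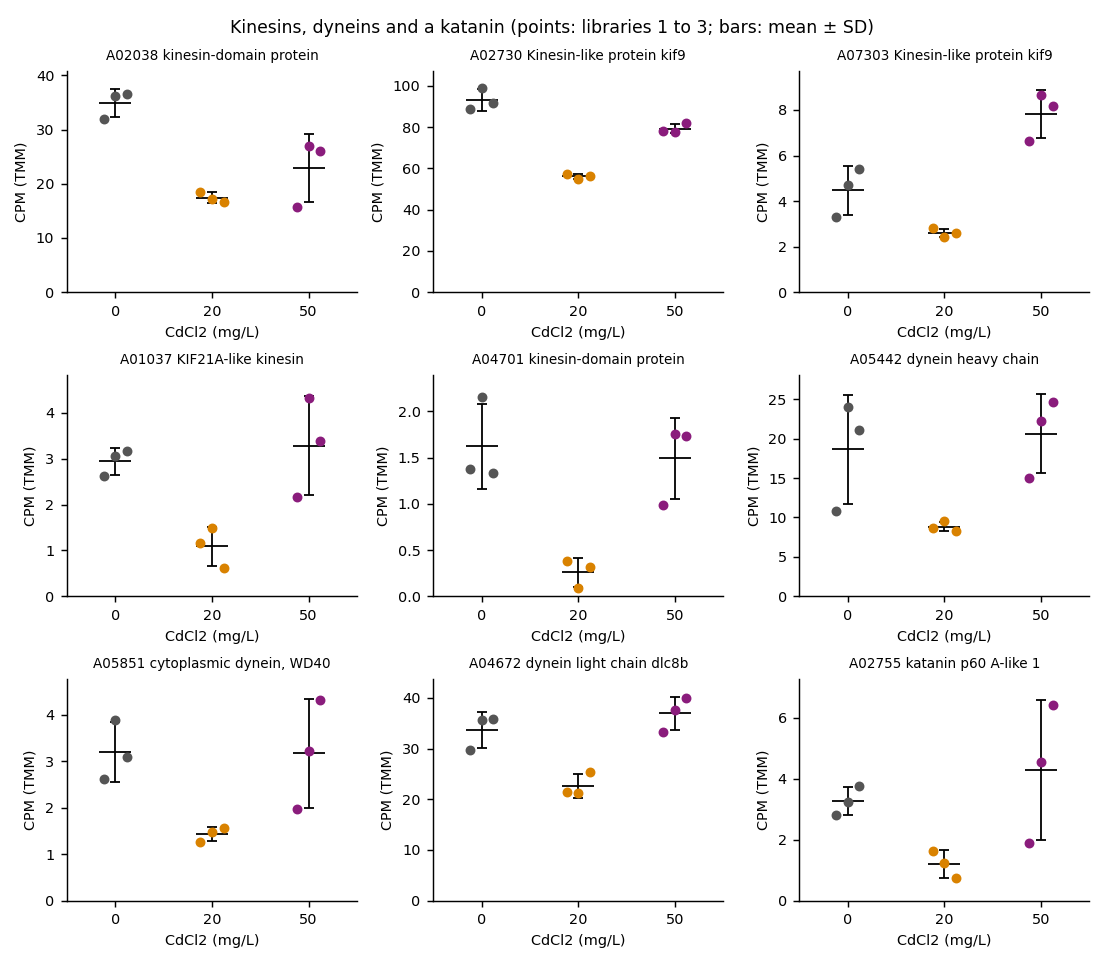
CPM of 5 kinesins, 3 dynein genes and a katanin by CdCl2 concentration, with points for the 3 libraries and bars for the mean ± SD. Only members that fell at 20 mg/L against control are shown, so a mean below Control there was set by that choice. Each mean is also below that of Cd50, as for A05442 (8.33 to 9.4996 CPM in Cd20). Of the motors not shown, some were also lowest in Cd20, but A04897 was highest there, A05805 lowest in Cd50 and A10804 lowest in Control. The first library of Cd50 is often the lowest of its group, as at 15.0 CPM for A05442.

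Katanin p60 subunits are ATPases that sever microtubules. The katanin A02755, on chromosome 15 from 1189205 to 1193391, had 2.82, 3.23 and 3.75 CPM in Control 1 to 3, 1.64, 1.22 and 0.729 CPM in Cd20 1 to 3, and 1.89, 4.54 and 6.44 CPM in Cd50 1 to 3. Cd20 was lowest, and the Cd50 libraries spread on both sides of the controls. It fell at 20 mg/L (log2 fold change -1.43, SE 0.44, edgeR adjusted p = 0.0175), a call lost without Control 3 (adjusted p = 0.0542), Cd20 2 (0.0518) or Cd20 3 (0.0757). At 50 against 20 mg/L it was higher (1.84, SE 0.43, adjusted p = 0.00238). At 50 mg/L against control it was at 0.41 (adjusted p = 0.385), and at 0.74 without Cd50 1 (adjusted p = 0.0338). Its neighbour, 388 bases further on in the deposited coordinates, is the TTLL9-like gene A02756. That gene had few counts (15 in Control, 5 in Cd20 and 29 in Cd50), and whether the 2 neighbours change together was not tested.

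The other katanin, A08756 on chromosome 6 from 2918734 to 2920584, had 9, 5 and 7 counts in Control 1 to 3, 3, 5 and 0 counts in Cd20 1 to 3, and 17, 23 and 16 counts in Cd50 1 to 3. The 0 in Cd20 3 allows up to 0.312 CPM with TMM factors, if 3 counts are taken as the limit for counting error. Every Cd50 library was above all others. It was higher at 50 than at 20 mg/L (log2 fold change 2.51, SE 0.54, edgeR adjusted p = 0.00126) and rose at 50 mg/L against control (1.44, SE 0.44, adjusted p = 0.01997). The second call was lost without Control 2 (adjusted p = 0.0523), Control 3 (0.0532) or Cd50 2 (0.0703). At 20 mg/L it was at -1.07 (SE 0.64, adjusted p = 0.165).

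Genes that work beside this group were read from lists of product words. Among all tested genes, 27.2% fell and 23.8% rose at 20 mg/L (median log2 fold change -0.03), 21.8% fell and 17.8% rose at 50 mg/L against control (median 0.03), and 34.7% fell and 35.3% rose at 50 against 20 mg/L (median 0.03). Axonemal and flagellar genes, which build the beating core of flagella, fell in 9 of 9 tested cases at 20 mg/L (edgeR, median log2 fold change -0.97). In cultures at 50 mg/L, 2 of 9 fell against control (median -0.32), and at 50 against 20 mg/L 7 of 9 rose (median 0.77). The difference between this list and the members was not tested. Of 12 genes chosen as folding factors, 6 fell and 1 rose at 20 mg/L (median -0.33), 4 rose at 50 mg/L against control (median 0.24), and 9 rose and 1 fell at 50 against 20 mg/L (median 0.53). Among them 8 are named as TCP-1 or of its family, the chaperonin ring that folds tubulin and actin. At 20 mg/L the beta subunit A07921 fell by 0.72 on the log2 scale (SE 0.14, edgeR adjusted p = 0.00114), while the delta subunit A01600 rose by 0.45 (SE 0.09, adjusted p = 0.00128). The list also took in A07214 and A10168, named GroL, a chaperonin of bacteria and organelles that does not fold tubulin. Of the 2 genes matched for chromosome segregation, the anaphase promoting complex subunit A05208 and the G2/mitotic cyclin A09727, the edgeR adjusted p ranged from 0.0894 to 0.850 over the 3 comparisons. The words for actin regulators matched A07070 alone, through letters of a database name, so no actin regulator beyond A04845 was found by name.

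The authors' deposited tables list 13 members at 20 mg/L against control, 6 at 50 mg/L against control and 18 at 50 against 20 mg/L. The share of all genes listed there was not counted, so these numbers say nothing particular about the members. Of the members called here, 13 of 14, 6 of 7 and 17 of 17 are in those tables, all in the same direction. Both sets of calls rest on the same libraries, so this overlap is not independent support.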

How the data were processed

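The submitters' processing notes name DESeq2 (1.34.0), STAR (2.7.10a) and StringTie (2.2.1), with no role given. No source used here gives the counting program, its strand setting, the assembly or the annotation. Raw counts as the authors deposited them are whole numbers for every gene and library. The FPKM values deposited by the authors lay within 1% of counts divided by coding length and column total in 100% of cases. The authors' tables of log2 fold changes, p-values and group means of scaled counts (a normalized signal) were used only for the overlap of calls and for the value of A02756. No member overlaps another gene in the deposited coordinates.

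The test was edgeR's quasi-likelihood F-test (edgeR 4.0.16, R 4.3.3) with TMM scaling, in 1 model over the 9 libraries that holds only the group. The filterByExpr step kept 11140 of 12605 genes. A call is a Benjamini-Hochberg adjusted p under 0.05 over these genes. SE is the log2 fold change divided by the square root of F. Alternatives were other scalings, other filters, DESeq2 1.42.0, limma 3.58.1 on log2(FPKM + 1), fewer libraries and a replicate block. Functions were tested on simulated data. The tubulin ratios and their leave-one-out values were added after seeing the data. Members, lists and alternatives were chosen with earlier results of these data known. The value in every library is given for members changed at least 2-fold without overlap of groups, and for the 2 most abundant of each class.

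Residuals of libraries with the same number correlated at 0.594, 0.449 and 0.186 for 50 mg/L against control, which counts as paired, and at -0.218 to 0.132 in the other comparisons, which does not. The labels do not say what a number stands for, so the main test has no block.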

Additional observations from a re-analysis of the deposited data

How the results depend on the processing

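Results were recomputed under 20 alternatives for each tested member and comparison, and counts also with a 2-fold minimum. Only A08756 at 20 mg/L against control had fewer, with a value in 18. At 50 against 20 mg/L, all 17 calls were kept in every alternative, and the lowest and highest counts on leaving out a library were 13 and 16 rises and 4 and 4 falls. At 20 mg/L against control, 11 of 14 calls were kept in every alternative, with 4 and 4 rises and 7 and 11 falls on leaving out a library. At 50 mg/L against control, 2 of 7 calls were kept in every alternative, with 1 and 6 rises and 2 and 5 falls. Rises there numbered 6 with library size alone, 7 in limma on FPKM and 6 without Control 1 and Cd50 1 together. Falls numbered 1 with library size alone, 1 with upper quartile factors and 1 in limma. Calls over all tested genes also moved with the scaling, as given above. With the 2-fold minimum, 0 members rose and 6 fell at 20 mg/L against control, 1 rose and 0 fell at 50 mg/L against control, and 8 rose and 0 fell at 50 against 20 mg/L. With the replicate block on all 9 libraries the counts were 4 rises and 11 falls, 3 rises and 4 falls, and 13 rises and 4 falls in these comparisons. Within only the 6 libraries compared, the block gave 5 falls at 50 mg/L against control. Shares of all tested genes were not counted with the 2-fold minimum, in limma, with the block or with libraries left out. No called value changed sign. The means of the 2 tubulin ratios moved by less than 1 SD on leaving out any library. Any 3 values must do so, and this therefore says nothing about how stable the ratios are. The cause of these shifts was not tested. Low counts limit A04701 and A08756, each with 8 counts over the 3 Cd20 libraries.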
